A study of Mus musculus with 10 samples.

Results

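The fatty acid oxidation genes described here encode the enzymes and carriers that activate fatty acids, move them into mitochondria and shorten them in mitochondria or peroxisomes. The set is a list of 41 genes named for their function, with no threshold on measured values. Of these, 38 had a probe set annotated to their symbol alone and were analysed, among 19938 genes in all. The synthetase genes Acsl1 and Acsl3 and the uncoupling protein gene Ucp2 were not analysed here. RNA came from islets of Langerhans, the endocrine clusters of the pancreas, and each sample was run on 1 whole-transcript array. The 5 NZO samples came from male NZO/Hl mice, a strain prone to obesity and diabetes, and the 5 C3H samples from male C3HeB/FeJ mice. All mice were 6 weeks old and had eaten a diet with 45% of its energy as fat from weaning at day 21. After isolation, all islets spent a night in culture with 10 mM glucose, so no sample was from a low-fat diet or from uncultured islets. Most sample titles carry a pair of animal numbers, and no number recurs between titles. The title of NZO replicate 4 carries 1 number and that of NZO replicate 5 a range. The labels do not say whether animals were pooled. The p-values therefore describe only how these samples varied, which may differ from how single animals vary.

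In beta-oxidation, a long-chain fatty acid is first linked to coenzyme A by an acyl-CoA synthetase and then handed to carnitine for transport through the mitochondrial membranes. Inside, repeated rounds of dehydrogenation, hydration, a further dehydrogenation and thiolysis shorten the chain, and the electrons of the first step pass through the electron transfer flavoprotein to the respiratory chain. Peroxisomes run a parallel pathway with their own enzymes for very long and branched chains. In beta cells, entry of fatty acids into mitochondria is held back by malonyl-CoA when glucose is high, and the short-chain enzyme encoded by Hadh is known as a brake on insulin secretion.

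Values are log2 expression values made by the authors with RMA, a method that normalizes arrays together and gives no detection call, and 1 log2 unit is a doubling. The median of all probe sets on an array was 6.93 to 7.05, and arrays of a strain correlated at 0.983 to 0.997 over all genes. The mean of 25 measured genes of pancreatic acinar cells, which surround the islets, was 9.90, 9.67, 10.2, 11.7 and 11.5 on NZO replicates 1 to 5 and 7.93 to 8.77 on the C3H arrays. The mean of 13 beta cell markers was 10.7 to 11.4 on NZO arrays and 11.4 to 11.5 on C3H arrays. Means of delta and PP cell markers (9.49 to 9.74 in NZO, 10.05 to 10.41 in C3H, 5 of 6 genes lower) and of alpha cell markers (9.90 to 10.09 in NZO, 10.24 to 10.27 in C3H, 2 of 5 lower) did not overlap. Duct markers were 8.06 to 9.19 in NZO and 7.65 to 8.00 in C3H (3 of 6 higher), and stellate and fibroblast markers 7.96 to 9.32 in NZO and 8.09 to 8.38 in C3H (2 of 9 higher). The part of these cells in the results was not tested beyond the acinar covariate. The mean of 11 macrophage markers was 7.82 to 9.04 in NZO and 7.69 to 7.87 in C3H. C3H replicate 4 stood apart within its strain, with the highest array median (7.05), and gave the lowest C3H value in 33 of the 38 genes, where it was the lowest C3H array in 43.4% of all genes. For the 38 genes, calls that these arrays decide are given below with and without them.

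Most of the 38 genes differed little between the strains, and a few differed by more. Cpt1a, Acad8, Acaa2, Decr2 and Acaa1a were higher in NZO islets, and Acsl6 and Hadh were lower. These 7 genes, or 18.4%, passed the limma test at a Benjamini-Hochberg adjusted p below 0.05, where 10.1% of all genes passed. Bright genes passed more often. Among genes above the median brightness, 7 of 33 (21.2%) passed against 17.2% of all such genes, and above the 25th percentile 7 of 37 (18.9%) against 13.9%, so the share lay close to that of genes of like brightness. The 5 higher genes stand beside a background of 5.47% and the 2 lower genes beside 4.61%. The median difference, NZO minus C3H, was 0.02 over the 38 genes and -0.02 over all genes tested, and 27 of the 38 differences were smaller than 0.2 log2 units in either direction. NZO and C3H arrays did not overlap in 5 of the genes, against 9.14% of all genes. In 4 of them NZO lay above (4.96% of all genes) and in 1 below (4.18% of all genes). Without NZO replicates 4 and 5 the same 7 genes passed and Pdk4 joined them, and without C3H replicate 4 the 7 passed together with Acad9, Eci1, Ech1 and Acox2. Of all genes, 5.54% and 13.5% passed in these 2 settings. With the mean of the acinar genes as a covariate beside strain, 2 of the 38 genes passed, Acsl6 and Pdk4, against 1.06% of all genes. The acinar means of the strains do not overlap, so this fit carries a common slope across a range that held no arrays.

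**Figure D1:**
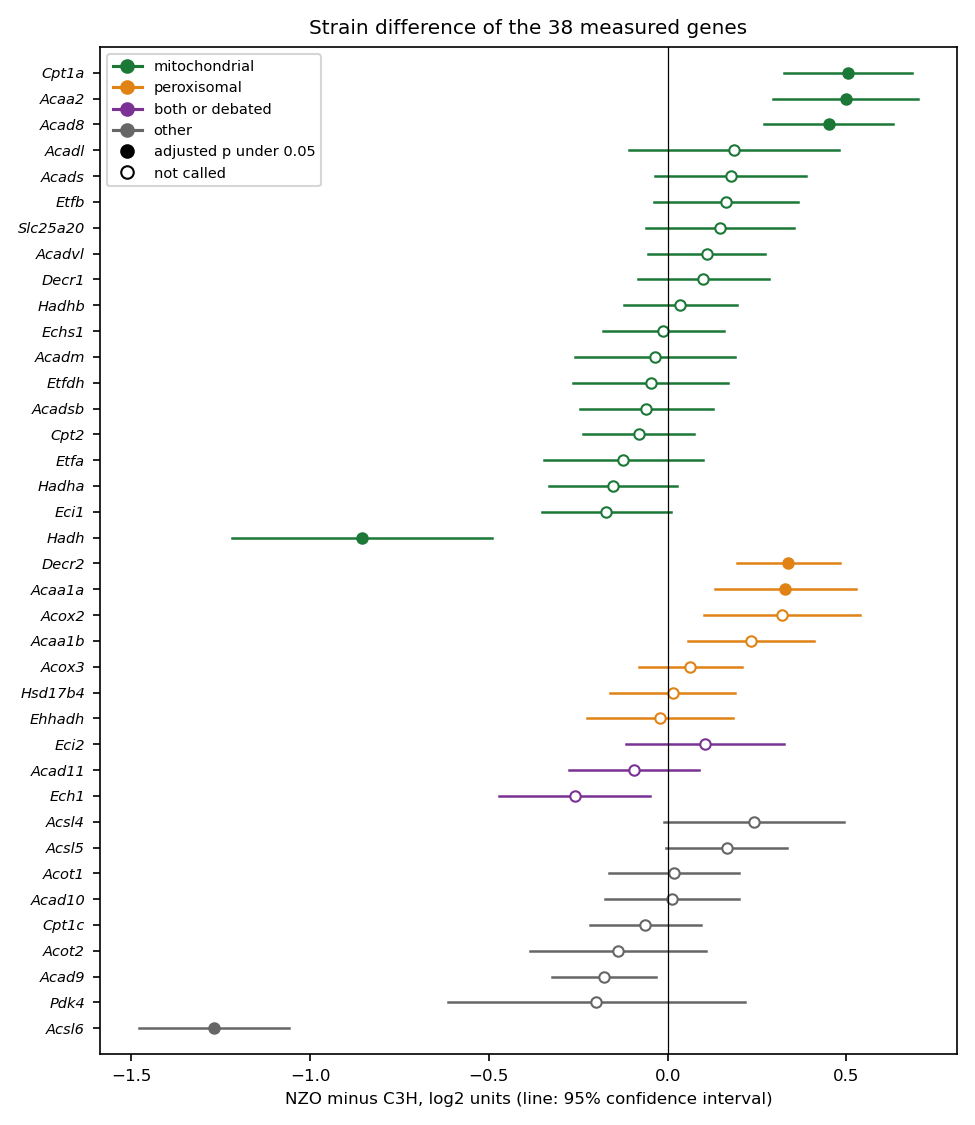
The strain difference of each of the 38 genes (horizontal axis, NZO minus C3H in log2 units) is drawn with its 95% confidence interval, coloured by compartment, and filled where the limma adjusted p is below 0.05. Most intervals cross 0, Acsl6 (-1.27) and Hadh (-0.85) lie far to the left, and the 5 genes that were higher in NZO lie between 0.33 and 0.50.

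Upstream sequences are shown for 3 called genes, the synthetase gene Acsl6, the rate-limiting Cpt1a and Hadh, and for the uncalled pair Hadhb and Hadha, whose starts share a window. Each is the stretch of 250 bases just before an annotated RefSeq start, in the build GRCm38.p6. The set of promoters used here covered 37 of the 41 listed genes. It lacked the called gene Acaa2 as well as Hsd17b4, Acad9 and Decr1, which were therefore not searched. Capitals mark AGGTCA, on either strand, the hexamer that nuclear receptors of fatty acid metabolism recognise.
Acsl6, chr11:54303574-54303823, plus strand: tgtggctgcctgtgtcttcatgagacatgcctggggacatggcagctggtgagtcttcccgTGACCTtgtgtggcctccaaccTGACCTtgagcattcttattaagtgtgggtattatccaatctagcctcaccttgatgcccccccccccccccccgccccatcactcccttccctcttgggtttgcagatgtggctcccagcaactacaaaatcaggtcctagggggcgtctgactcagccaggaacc
Cpt1a, chr19:3323051-3323300, plus strand, inside the span of the annotated gene: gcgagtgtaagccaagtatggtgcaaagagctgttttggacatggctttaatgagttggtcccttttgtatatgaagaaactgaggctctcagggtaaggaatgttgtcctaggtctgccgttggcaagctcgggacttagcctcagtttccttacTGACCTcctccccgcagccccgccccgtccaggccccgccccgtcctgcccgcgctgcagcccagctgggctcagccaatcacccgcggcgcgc
Hadh, chr3:131272102-131272351, minus strand: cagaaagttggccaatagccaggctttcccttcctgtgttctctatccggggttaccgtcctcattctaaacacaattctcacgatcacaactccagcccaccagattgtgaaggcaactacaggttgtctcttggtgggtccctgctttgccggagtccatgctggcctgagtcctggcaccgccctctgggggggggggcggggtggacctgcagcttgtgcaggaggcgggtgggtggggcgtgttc
Hadhb, chr5:30155003-30155252, plus strand, shared with Hadha: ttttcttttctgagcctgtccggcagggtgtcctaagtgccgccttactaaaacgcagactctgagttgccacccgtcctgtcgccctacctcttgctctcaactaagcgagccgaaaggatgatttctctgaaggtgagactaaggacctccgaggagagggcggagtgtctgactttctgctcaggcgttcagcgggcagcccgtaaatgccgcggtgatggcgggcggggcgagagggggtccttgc
The most upstream of 3 annotated Acsl6 starts has the hexamer at 189 and 167 bases before the start, the Cpt1a window has it at 94 bases, and the Hadh and Hadhb windows hold none. The windows of the other Acsl6 starts, not shown, also hold none.

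Peroxisome proliferator-activated receptors, known regulators of these genes, bind a pair of such hexamers with 1 base between them, AGGTCANAGGTCA. In windows from 250 bases before to 50 after the start, searched on both strands, this motif was found in none of the 41 promoters of the 37 listed genes, exactly or with 1 mismatch, against 0.0396% and 0.554% of all 32851 promoters. The hexamer AGGTCA alone, which is part of both longer motifs, lay in promoters of 6 of the 37 genes, Acadm, Acadvl, Acsl6, Cpt1a, Cpt1c and Echs1, and in 16.3% of all promoters. TCAAGGTCA, recognised by estrogen-related receptors, lay in 1 of the 41, in Acsl6 at 167 bases before its most upstream start, and in 0.423% of all promoters. These matches describe letters in the window and were not tested as binding sites.

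The set begins with activation, where Acsl6 showed the largest difference of all 38 genes. Acsl6 encodes a long-chain acyl-CoA synthetase known from brain for handling polyunsaturated fatty acids. Its log2 value was 7.47, 7.19, 7.08, 7.27 and 6.94 on NZO replicates 1 to 5, against 8.41, 8.565, 8.37, 8.36 and 8.60 on C3H replicates 1 to 5. Every NZO array lay below every C3H array. The difference was -1.27 (SE 0.10, limma adjusted p = 1.53e-06), so that the signal was 2.41-fold lower in NZO. With the acinar covariate, Acsl6 still passed at -1.03 (SE 0.20, limma adjusted p = 0.0220), and without NZO replicates 4 and 5 it was -1.21.

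The other synthetases measured did not pass. Acsl4, an enzyme with a preference for arachidonic acid, was 9.98 to 10.7 on NZO arrays and 9.87 to 10.3 on C3H arrays, a difference of 0.24 (95% confidence interval -0.01 to 0.49). Acsl5, found on mitochondria and endoplasmic reticulum, differed by 0.16 (interval -0.00 to 0.33). The arrays of the strains overlapped in both genes.

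Of the 4 genes of the carnitine shuttle, Cpt1a alone passed. Cpt1a encodes the outer-membrane carnitine palmitoyltransferase, the step inhibited by malonyl-CoA and rate-limiting for mitochondrial oxidation. It measured 9.56, 9.33, 9.45, 9.60 and 9.66 on NZO replicates 1 to 5, against 8.99, 9.14, 9.06, 8.85 and 9.03 on C3H replicates 1 to 5. The strains did not overlap, and NZO islets were higher by 0.50 (SE 0.08, 1.42-fold, limma adjusted p = 0.00118). Without NZO replicates 4 and 5 the difference was 0.43 (limma adjusted p = 0.0168). With the acinar mean as a covariate it was 0.30 (SE 0.17) and no longer passed (limma adjusted p = 0.882).

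The other 3 genes of the shuttle did not pass. Slc25a20, the carnitine-acylcarnitine carrier of the inner membrane, differed by 0.15 (interval -0.06 to 0.35). Cpt2, which returns the acyl group to coenzyme A on the inner side, differed by -0.08 (interval -0.24 to 0.07). Cpt1c, a relative of Cpt1a known from neurons and located in the endoplasmic reticulum, was 7.85, 7.85, 7.74, 7.73 and 7.77 in NZO and 7.90, 7.81, 7.96, 7.70 and 7.88 in C3H. The Cpt1c arrays overlapped, with a difference of -0.06 (interval -0.22 to 0.09).

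**Figure D2:**
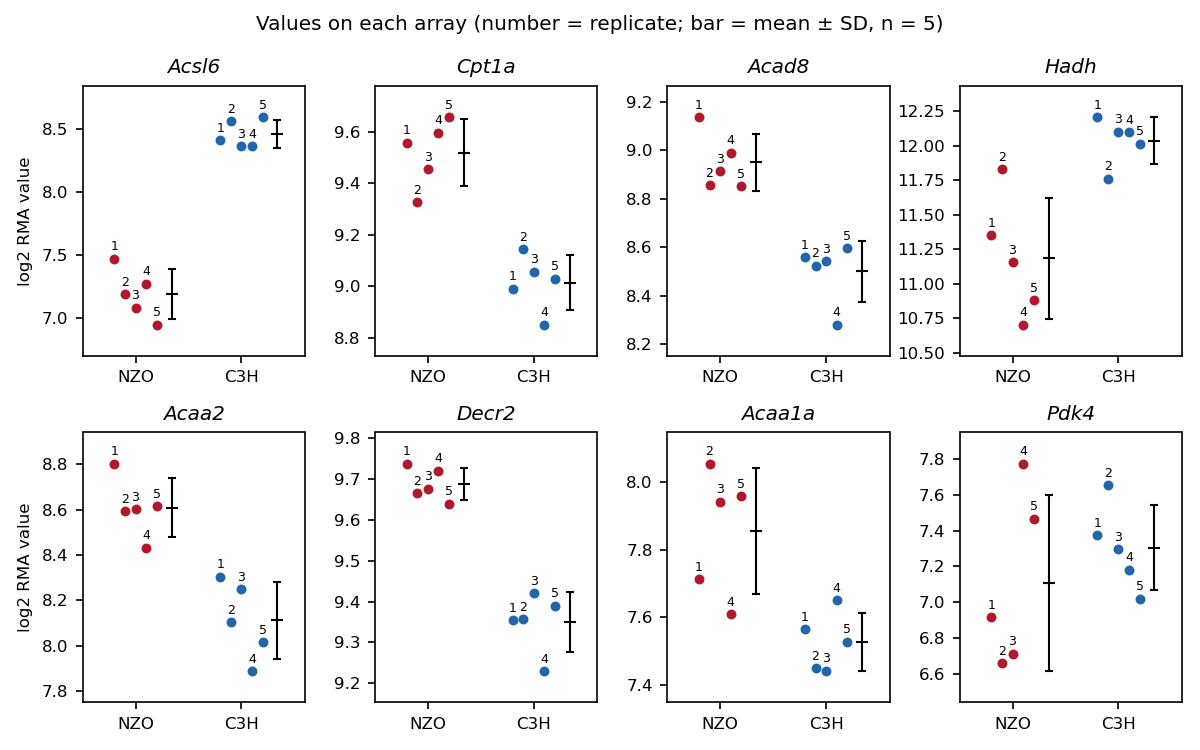
Log2 RMA values of 8 genes are plotted for the NZO arrays (left, red) and the C3H arrays (right, blue), each point being 1 array with its replicate number, beside the mean and SD of 5 arrays. The strains do not overlap in Acsl6, Cpt1a, Acad8, Acaa2 and Decr2, and 1 NZO array lies within the C3H range in Hadh and in Acaa1a. In Pdk4, NZO replicates 4 and 5 lie above the other NZO arrays.

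Among 9 acyl-CoA dehydrogenase genes, Acad8 was higher in NZO and the others did not pass. Acad8 encodes isobutyryl-CoA dehydrogenase, an enzyme of valine breakdown rather than of straight-chain fatty acids. Its values were 9.14, 8.86, 8.92, 8.99 and 8.85 in NZO, replicates 1 to 5, and 8.56, 8.52, 8.54, 8.28 and 8.60 in C3H. All NZO values exceeded all C3H values, by 0.45 on average (SE 0.08, 1.37-fold, limma adjusted p = 0.00299). Its difference was 0.47 without NZO replicates 4 and 5 and 0.48 (SE 0.19) with the acinar covariate, where it did not pass (limma adjusted p = 0.464).

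The dehydrogenases that take straight chains in order of length did not pass. Acadvl, for very long chains, differed by 0.11 (interval -0.05 to 0.27), and Acadl, for long chains, by 0.19 (interval -0.11 to 0.48). Acadm, the medium-chain enzyme, differed by -0.04 (interval -0.26 to 0.19) and Acads, the short-chain enzyme, by 0.18 (interval -0.04 to 0.39). Acadsb, which acts on a branched chain from isoleucine, differed by -0.06. Acad10 and Acad11, less well described relatives, differed by 0.01 and -0.09. Acad9, which is also an assembly factor of respiratory complex I, differed by -0.18 (interval -0.32 to -0.03, limma adjusted p = 0.130) and passed without C3H replicate 4, at -0.21 (limma adjusted p = 0.0360).

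The next mitochondrial steps held both a lower and a higher gene. Hadh, which encodes the short-chain 3-hydroxyacyl-CoA dehydrogenase, also binds and restrains glutamate dehydrogenase, and its loss causes excess insulin secretion in humans. Hadh was 11.35, 11.83, 11.15, 10.70 and 10.88 on NZO replicates 1 to 5, against 12.21, 11.76, 12.10, 12.10 and 12.02 on C3H replicates 1 to 5. NZO replicate 2 lay above the lowest C3H array, and the other 4 NZO arrays lay below all C3H arrays. The mean was 11.2 ± 0.44 in NZO and 12.0 ± 0.17 in C3H (SD, n = 5 each), a difference of -0.85 (SE 0.17, 1.81-fold lower in NZO, limma adjusted p = 0.00447).

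Within NZO, Hadh was lowest on replicates 4 and 5, which had the highest acinar means (11.7 and 11.5) and the lowest beta cell means (10.7 and 10.8). NZO replicate 2, with the highest Hadh value of the strain, had the lowest acinar mean (9.67) and the highest beta cell mean (11.4). Within C3H the order was the other way round, with Hadh highest (12.21) on replicate 1, which had the highest acinar mean (8.77), and lowest (11.76) on replicate 2, which had the lowest (7.93). Of 13 beta cell markers, 5 were lower in NZO and none higher in limma, with none at an unadjusted p below 0.05 in the upward direction. Of 25 acinar genes, 23 were higher in NZO. Hadh differed by -0.59 without NZO replicates 4 and 5 (SE 0.14, limma adjusted p = 0.0280), and by -0.08 (SE 0.28, limma adjusted p = 0.999) with the acinar mean as a covariate. That covariate differs between the strains and multiplies the SE of a strain difference by 2.11 at a given residual spread. In whole islets, fewer cells of a type and less RNA per cell cannot be told apart.

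**Figure D3:**
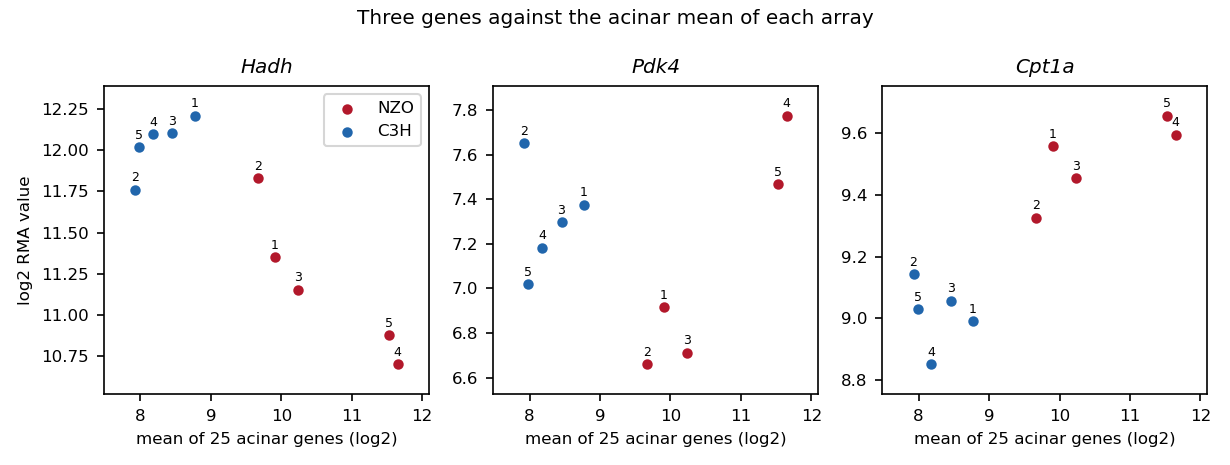
Log2 values of Hadh, Pdk4 and Cpt1a (vertical axes) are plotted against the mean of 25 acinar genes (horizontal axes, log2) on the 5 NZO arrays (red) and the 5 C3H arrays (blue), labelled by replicate. Along the NZO arrays, Hadh is 11.83 at the lowest acinar mean and 10.70 at the highest, whereas Pdk4 is highest (7.77 and 7.47) on the 2 arrays with the highest acinar means.

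Acaa2 encodes the mitochondrial 3-ketoacyl-CoA thiolase, which cleaves off acetyl-CoA at the end of each round. Its values were 8.80, 8.59, 8.60, 8.43 and 8.62 in NZO, replicates 1 to 5, and 8.30, 8.10, 8.25, 7.89 and 8.01 in C3H. All NZO arrays lay above all C3H arrays, with a difference of 0.50 (SE 0.09, 1.41-fold, limma adjusted p = 0.00331). The difference was 0.55 without NZO replicates 4 and 5 and 0.57 (SE 0.20, limma adjusted p = 0.383) with the acinar covariate.

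The trifunctional protein and the short-chain hydratase did not pass. Hadha and Hadhb encode the subunits of the membrane-bound complex that carries out the last steps for long chains, and they face away from each other on chromosome 5 with 272 bases between their starts. Hadha differed by -0.15 (interval -0.33 to 0.03) and Hadhb by 0.03 (interval -0.12 to 0.19). A second Hadhb probe set also gave 0.03. Echs1, the short-chain enoyl-CoA hydratase, differed by -0.01 (interval -0.18 to 0.16). Among the genes for these mitochondrial steps, Hadh and Acaa2 passed in opposite directions.

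The auxiliary enzymes, which deal with double bonds, included 1 called gene, the peroxisomal Decr2. Decr2 encodes a 2,4-dienoyl-CoA reductase and was 9.74, 9.66, 9.68, 9.72 and 9.64 on NZO replicates 1 to 5, against 9.35, 9.36, 9.42, 9.23 and 9.39 on C3H replicates 1 to 5. The strains were clearly apart and the NZO arrays close together (SD 0.04), with a difference of 0.34 (SE 0.07, 1.26-fold, limma adjusted p = 0.00456). Its size was 0.34 without NZO replicates 4 and 5 and 0.34 (SE 0.15, limma adjusted p = 0.641) with the acinar covariate. Decr1, the mitochondrial counterpart, differed by 0.10 (interval -0.08 to 0.28).

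The isomerases had small differences that did not pass. Eci1, the mitochondrial enoyl-CoA isomerase, differed by -0.17 (interval -0.35 to 0.01), and Eci2, found in both organelles, by 0.10 (interval -0.12 to 0.33). Ech1, a dienoyl-CoA isomerase of both organelles, differed by -0.26 (interval -0.47 to -0.05, limma adjusted p = 0.123). Without C3H replicate 4, Ech1 passed at -0.34 (limma adjusted p = 0.0152) and Eci1 at -0.24 (limma adjusted p = 0.0305). Neither passed without NZO replicates 4 and 5.

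None of the 3 genes that carry the electrons onward passed in limma, and none had an unadjusted p below 0.05. Etfa and Etfb encode the subunits of the electron transfer flavoprotein, and Etfdh the membrane enzyme that passes its electrons to ubiquinone. Etfb was 9.26, 9.48, 9.28, 9.04 and 9.39 in NZO, replicates 1 to 5, and 9.20, 9.07, 9.27, 8.93 and 9.17 in C3H, which overlapped, with a difference of 0.16 (interval -0.04 to 0.36). Etfa differed by -0.12 (interval -0.35 to 0.10) and Etfdh by -0.05 (interval -0.26 to 0.17).

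Etfb and Cpt1c are the 2 of the 38 genes that start in the region of chromosome 7 from 30 to 46 Mb, which the study searched for C3H-specific variants. Neither passed in limma (adjusted p = 0.359 for Etfb and 0.724 for Cpt1c), and neither passed under any of the 20 alternatives. Their positions come from GRCm38.p6, and the build behind the array's probe sets is not given in the sources used here. The 38 genes lay on 16 chromosomes, with 6 on chromosome 9 and 5 on chromosome 7.

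Of the 7 peroxisomal genes, 2 were higher in NZO (5.47% of all genes were), 5 did not pass, none was lower and none was at an unadjusted p below 0.05 in the downward direction in limma. Besides Decr2, the called gene was Acaa1a, a peroxisomal 3-ketoacyl-CoA thiolase. Acaa1a was 7.71, 8.06, 7.94, 7.61 and 7.96 on NZO replicates 1 to 5, against 7.56, 7.45, 7.44, 7.65 and 7.53 on C3H replicates 1 to 5. NZO replicate 4 lay below the highest C3H array, and the difference was 0.33 (SE 0.09, 1.26-fold, limma adjusted p = 0.0356). The call was lost when C3H replicate 1, 2, 3 or 5, or NZO replicate 2, 3 or 5, was left out singly, with differences of 0.28 to 0.34 and limma adjusted p up to 0.0960.

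Acaa1b, a close copy of Acaa1a on the same chromosome with 4 protein-coding genes starting between them, was 7.22 to 7.53 in NZO and 7.02 to 7.24 in C3H, a difference of 0.23 (interval 0.06 to 0.41, limma adjusted p = 0.0937). The pair are so alike that probes of either may also bind transcripts of the other. Acox2, an oxidase for branched chains and bile acid precursors, was 6.11 to 6.58 in NZO and 5.90 to 6.17 in C3H, a difference of 0.32 (limma adjusted p = 0.0628). The C3H mean of Acox2, 6.03, lay below the 25th percentile of genes on every array (6.17 to 6.45) so it may be background signal, and no fold is given. Acox2 was highest in NZO on replicates 4 and 5 (both 6.58) and differed by 0.17 without them. It passed without C3H replicate 4 (0.36) and without NZO replicate 1 (0.38) or 2 (0.35).

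The remaining peroxisomal genes did not pass. Acox3, another oxidase for branched chains, differed by 0.06 (interval -0.08 to 0.21). The bifunctional enzymes Ehhadh and Hsd17b4, each of which carries out hydration and dehydrogenation, differed by -0.02 (interval -0.23 to 0.18) and 0.01 (interval -0.16 to 0.19).

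Set side by side, mitochondrial genes had a median difference near 0 and peroxisomal genes a positive one. The 23 other peroxisomal genes measured had a median of 0.00, with 1 higher and 2 lower. The 19 mitochondrial genes had a median of 0.03, and 10 had a positive and 9 a negative sign, with 3 called higher and 1 lower. Acad9 (-0.18), Acot2 (-0.14) and Acsl5 (0.16), described here with mitochondrial roles or sites, were counted in neither group. Eci2 (0.10), Ech1 (-0.26) and Acad11 (-0.09), assigned to both organelles or of debated site, were also left out of both groups. Their median was -0.09, so the peroxisomal median depends on this assignment. The 7 peroxisomal genes had a median of 0.23, and 6 had a positive sign, with 2 called higher. Both medians describe the chosen genes and carry no test. Decr2, Acaa1a, Acox2 and Acaa1b differed by 0.23 to 0.34, and Acox3, Hsd17b4 and Ehhadh by -0.02 to 0.06. The peroxisomal median was 0.23 with the acinar covariate, 0.17 without NZO replicates 4 and 5, and 0.06 when genes below median brightness, here Acox2 and Acaa1b, were left out.

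Each gene was also centred on its mean over the 10 arrays and the deviations were averaged within each compartment. The peroxisomal mean was 0.09, 0.11, 0.05, 0.08 and 0.12 on NZO replicates 1 to 5, against -0.08, -0.10, -0.07, -0.15 and -0.05 on C3H replicates 1 to 5. No NZO array overlapped a C3H array in that measure. It rests mainly on Decr2, Acaa1a, Acox2 and Acaa1b (0.23 to 0.34), as the other peroxisomal genes differed by -0.02 to 0.06. Of these, Acox2 may be background signal and Acaa1a and Acaa1b may share signal. Such separation was not particular to these genes. Marker means of acinar, duct, alpha, and delta and PP cells did not overlap between the strains either. Those of beta, endothelial, macrophage, stellate and fibroblast, and fat cells overlapped. How often means of gene groups of other kinds separate the strains was not computed. The mitochondrial mean was 0.11, 0.00, -0.01, 0.02 and -0.01 in NZO and 0.03, 0.02, 0.06, -0.22 and 0.01 in C3H. These overlapped, and C3H replicate 4 was the lowest of all arrays. The mitochondrial minus the peroxisomal mean was -0.07 ± 0.06 in NZO and 0.07 ± 0.08 in C3H (SD, n = 5 each), where C3H replicate 4 (-0.07) lay within the NZO range. None of 19 genes of general mitochondrial content, such as Tomm20, Vdac1 and Tfam, passed in limma, and none had an unadjusted p below 0.05 (median difference -0.06).

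**Figure D4:**
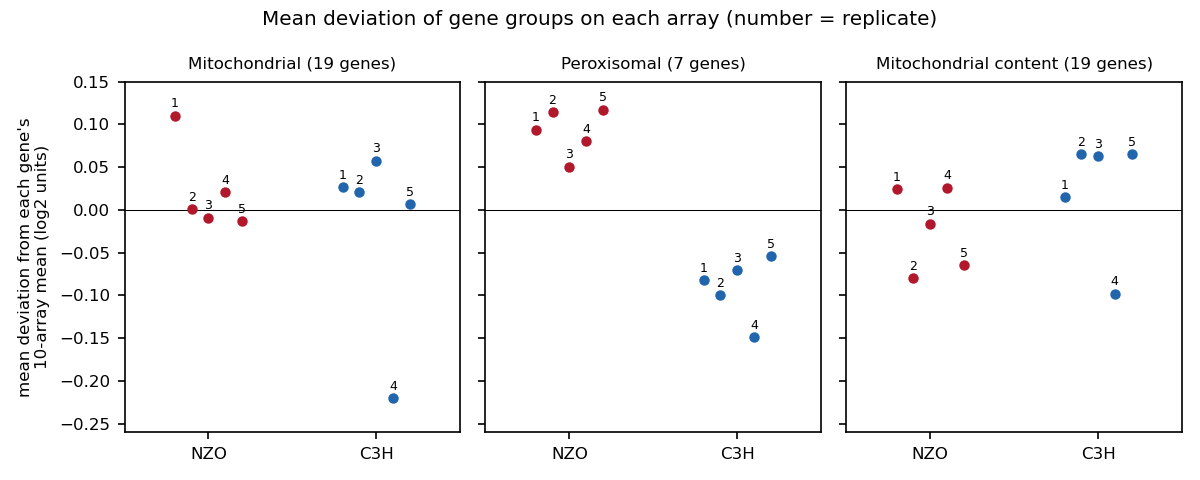
The mean deviation of 19 mitochondrial genes, 7 peroxisomal genes and 19 genes of general mitochondrial content from each gene's mean over the 10 arrays (vertical axis, log2 units) is shown for each NZO array (left, red) and C3H array (right, blue), numbered by replicate. The peroxisomal deviations are 0.05 to 0.12 in NZO and -0.15 to -0.05 in C3H, whereas the other panels overlap and C3H replicate 4 is lowest in each. The peroxisomal separation rests mainly on Decr2, Acaa1a, Acox2 and Acaa1b.

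The last members lie beside the pathway. Pdk4 encodes a kinase that inhibits pyruvate dehydrogenase, the step that turns pyruvate into acetyl-CoA inside mitochondria, when fatty acids are burnt. It was 6.92, 6.66, 6.71, 7.77 and 7.47 on NZO replicates 1 to 5, against 7.37, 7.65, 7.30, 7.18 and 7.02 on C3H replicates 1 to 5. NZO replicates 1 to 3 lay below all C3H arrays and replicates 4 and 5 did not, which gave Pdk4 the largest SD of the 38 genes in NZO (0.49). The difference was -0.20 (interval -0.61 to 0.21, limma adjusted p = 0.653). Without NZO replicates 4 and 5 it was -0.54 (SE 0.13, limma adjusted p = 0.0254), and with the acinar mean as a covariate -1.23 (SE 0.27, limma adjusted p = 0.0434). The covariate value is larger in size than the gap between the lowest NZO array (6.66) and the highest C3H array (7.65). It rests on a slope carried across acinar means that no array had, so it is not a difference measured at a like acinar mean.

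Acot1 and Acot2 encode near-identical acyl-CoA thioesterases of the cytosol and the mitochondrion and are direct neighbours on chromosome 12. Acot2 was 10.3 to 11.0 in NZO and 10.7 to 10.9 in C3H, a difference of -0.14 (interval -0.39 to 0.11), and Acot1 differed by 0.02 (interval -0.16 to 0.20). Probes of either copy may bind both transcripts.

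**Figure D5:**
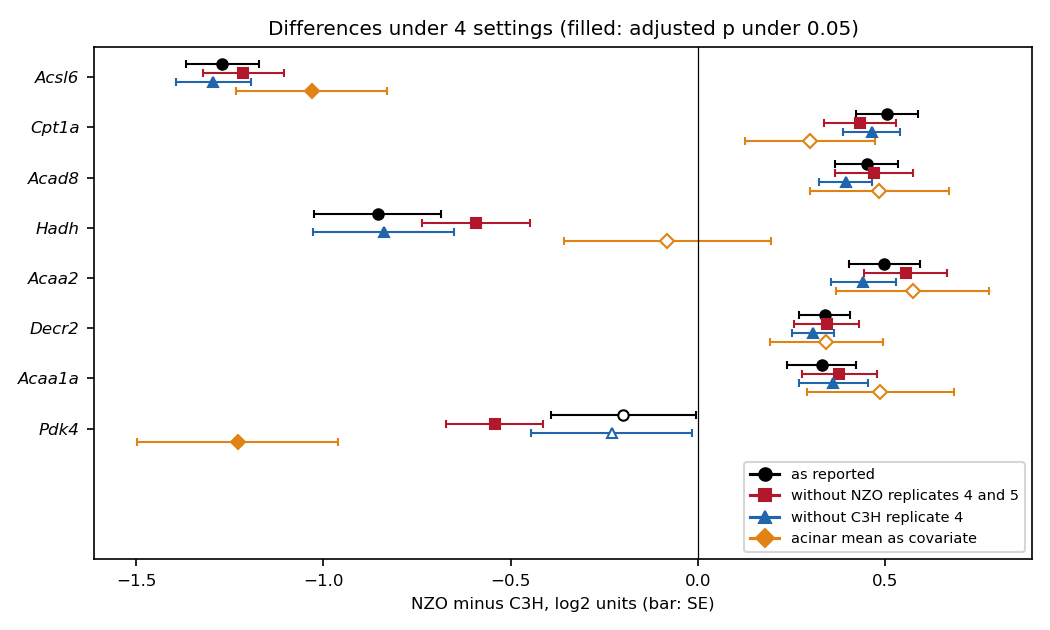
Differences of the 7 called genes and Pdk4 (horizontal axis, NZO minus C3H in log2 units, bars are SE) are shown as reported, without NZO replicates 4 and 5, without C3H replicate 4, and with the acinar mean as a covariate, filled where the limma adjusted p is below 0.05. Acad8, Acaa2 and Decr2 lie at 0.31 to 0.57 in all 4 settings and lose their calls with the covariate, Hadh moves to -0.08 with the covariate, and Pdk4 moves to -1.23.

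Genes around the pathway were taken from 7 lists with 110 further measured genes, of which 20, or 18.2%, passed in limma, 7 higher and 13 lower in NZO, against 10.1% of all genes (5.47% higher and 4.61% lower). Above the median brightness 19 of 82 (23.2%) passed, against 17.2% of all such genes. The counts of each list below stand beside these same shares. With the acinar covariate 3 of the 20 passed, Acsf2, Pparg and Nudt7. Among 7 genes of ketone body and propionate handling, 4 were lower and none higher, and none had an unadjusted p below 0.05 in the upward direction. Pccb and Pcca, the subunits of propionyl-CoA carboxylase, which takes up the last fragment of odd and branched chains, differed by -0.66 (SE 0.09) and -0.37 (SE 0.09). Mmut, the mutase that completes that route, differed by -0.38 (SE 0.09), and Oxct1, which activates ketone bodies for use, by -0.47 (SE 0.10). Pcca lost its call without C3H replicate 1 or 3 or NZO replicate 5 (-0.43 to -0.34 over single arrays left out, limma adjusted p up to 0.0556). Without NZO replicates 4 and 5, Pccb (-0.58) and Oxct1 (-0.34) passed and Mmut (-0.27) and Pcca (-0.29) did not. With the acinar covariate none of the 4 passed, at -0.46 for Pccb, -0.20 for Pcca, -0.09 for Oxct1 and -0.04 for Mmut.

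Among 15 genes of branched-chain amino acid breakdown and other users of the electron transfer flavoprotein, 3 were lower and none higher in limma, 1 having an unadjusted p below 0.05 in the upward direction. Hibch, of the valine route like Acad8, differed by -0.46 (SE 0.12), Bckdhb, a subunit of the branched-chain ketoacid dehydrogenase, by -0.39 (SE 0.11) and Ivd, of the leucine route, by -0.34 (SE 0.10). Bckdhb and Ivd passed in 2 of the 10 fits that left out 1 array, with limma adjusted p up to 0.123. Bckdhb kept its call without C3H replicate 4 or NZO replicate 1 and Ivd without C3H replicate 4 or NZO replicate 2. Hibch lost its call on leaving out C3H replicate 1, 2, 3 or 5 or NZO replicate 3 or 5 (-0.45 to -0.40 in those fits). Without NZO replicates 4 and 5 none of the 3 passed, at -0.43 for Hibch, -0.32 for Bckdhb and -0.23 for Ivd (limma adjusted p = 0.136, 0.213 and 0.322). With the acinar covariate they were -0.36, -0.21 and -0.08, and none passed (limma adjusted p = 0.999 each).

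Of 21 further genes of acyl-CoA formation and hydrolysis, 2 were higher and 2 lower. Acsf2, a mitochondrial acyl-CoA synthetase, was 8.22 ± 0.09 in NZO and 6.72 ± 0.18 in C3H (SD, n = 5 each), 2.84-fold higher (1.51, SE 0.09, limma adjusted p = 1.18e-07), and 1.54 with the acinar covariate (limma adjusted p = 0.000967). The thioesterase genes Acot4 (0.46) and Acot3 (-0.36) and the medium-chain synthetase gene Acsm3 (-0.57) also passed. With the acinar covariate Acsm3 was -0.28. Acot4, Acot3 and Acsm3 each had at least 1 strain mean below the 25th percentile of genes on the arrays, so no fold is given.

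Among 19 regulators and targets of the peroxisome proliferator-activated receptors, 4 passed, 3 of them higher. Pparg, the receptor known from fat cells, was 8.66 ± 0.12 in NZO and 7.72 ± 0.11 in C3H (SD, n = 5 each), 1.91-fold higher (0.94, SE 0.08, limma adjusted p = 4.33e-06), and 1.23 with the acinar covariate (limma adjusted p = 0.000933). Ppard was 0.23 higher (SE 0.07) and Plin2, a lipid droplet coat protein gene, 0.67 higher (SE 0.18). The Plin2 call was lost on leaving out C3H replicate 1, 3 or 4 or NZO replicate 3, 4 or 5 (0.54 to 0.68 in those fits, limma adjusted p up to 0.0710). It was 0.37 without NZO replicates 4 and 5 and -0.25 with the acinar covariate, and passed in neither. The Ppard call was lost on leaving out C3H replicate 1, 2, 3 or 5 or NZO replicate 3, 4 or 5 (0.21 to 0.24 in those fits, limma adjusted p up to 0.103) and without NZO replicates 4 and 5 (0.22, limma adjusted p = 0.203). Vnn1, a pantetheinase gene, differed by -0.56 (SE 0.11), with an NZO mean below that percentile. None of 6 fat cell markers passed in limma, with 1 lower and none higher at an unadjusted p below 0.05.

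Of 23 other peroxisomal genes, including the import factors, 1 was higher and 2 were lower. Nudt7, a peroxisomal coenzyme A hydrolase, was 0.71 higher (SE 0.07, 1.63-fold, limma adjusted p = 2.68e-05) and also passed with the acinar covariate (0.86). Its relative Nudt19 differed by -0.51 (SE 0.11) and the lipid transfer and thiolase gene Scp2 by -0.35 (SE 0.08). Scp2 was -0.36 without NZO replicates 4 and 5 and did not pass there (limma adjusted p = 0.0706).

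Of 8 further genes of carnitine and malonyl-CoA handling, 1 was higher and 1 lower. Slc22a5, the carnitine uptake carrier, was 0.33 higher (SE 0.09), a call lost on leaving out C3H replicate 1, 2 or 5 or NZO replicate 1, 3 or 4 (0.28 to 0.34 in those fits, limma adjusted p up to 0.0693) and without NZO replicates 4 and 5 (0.37, limma adjusted p = 0.0746). Slc25a29, a mitochondrial carrier named as a relative of the carnitine carrier, differed by -0.31 (SE 0.09), a call lost on leaving out C3H replicate 1, 2, 3 or 5 or NZO replicate 3, 4 or 5 (-0.32 to -0.26 in those fits, limma adjusted p up to 0.109). It was -0.21 without NZO replicates 4 and 5 (limma adjusted p = 0.316) and -0.07 with the acinar covariate (limma adjusted p = 0.999).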

How the data were processed

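The authors deposited a log2 value for each probe set on each array, computed with RMA. The submitters' processing notes name Affymetrix Expression Console as the software. The sources used here give neither its version nor a genome build. RMA shrinks differences among dim and among very bright probe sets. No further normalization was applied.

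Of 35556 probe sets, 21789 were annotated to 1 gene symbol, 1621 to several and 12146 are not named here. The brightest probe set by mean of the 10 arrays was kept per gene (999 genes had several), which left 19938 genes with no filter. Samples were grouped by strain, with replicate numbers in order of deposition. Strain was the only term in a linear model (limma 3.58.1, lmFit then eBayes, run in R 4.3.3), which gave NZO minus C3H and two-sided p-values, adjusted by Benjamini-Hochberg across all genes, with a threshold of 0.05, and 95% confidence intervals. The script was tested on simulated data. The number of arrays limits the precision, and no batch is given. Genes, lists, compartments and alternatives were chosen with earlier results of these data known. All measured members are named, with array values for called members, Hadh, Cpt1a, Pdk4 and the chromosome 7 members, and up to 4 called genes of each other list. Gene positions follow GRCm38.p6, where 19856 genes matched by Entrez ID. Alternatives were 2 brightness filters, array centring, an intensity trend, array weights, 2 other probe set rules, the acinar mean as a covariate, and arrays left out. Protein sequences were not used here.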

Additional observations from a re-analysis of the deposited data

Results flagged for a closer look

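In 9 of the 76 groups of 5 arrays (38 genes in 2 strains), 1 array lay far from the other 4 of its strain, with a gap to the nearest array above 0.71 of the whole range. Chance flags about 1 group in 20. All 9 concern C3H replicate 4, each time as the lowest array. It was 8.61 in Slc25a20 (other C3H arrays 8.84 to 8.91), 8.67 in Acadm (8.93 to 9.03), 9.34 in Acadsb (9.58 to 9.66) and 8.28 in Acad8 (8.52 to 8.60). It was 8.33 in Acad9 (8.45 to 8.48), 9.29 in Eci2 (9.66 to 9.76) and 8.155 in Decr1 (8.43 to 8.53). It was 9.50 in Hsd17b4 (9.68 to 9.71) and 6.25 in Acot1 (6.52 to 6.60). Of these genes Acad8 was called, and it differed by 0.39 without that array.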

How the results depend on the processing

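The 7 called genes numbered 6 to 11 with single arrays left out, the higher ones 4 to 6 and the lower ones 2 to 5, where leaving out C3H replicate 4 gave the 11 and the 5. Array weights also gave 11 and 5, and the acinar covariate gave 2, of which 0 higher (4 at an unadjusted p below 0.05 in limma). Acsl6 passed in all 20 alternatives, and Cpt1a, Acad8, Hadh, Acaa2 and Decr2 in all 20 but the covariate. Centring ended the call of Acaa1a (0.30, limma adjusted p = 0.0741). None of the 7 called genes changed sign, while Plin2 of the other lists was -0.25 with the covariate (limma adjusted p = 0.999). The mitochondrial median was -0.01 to 0.06 and the peroxisomal median 0.19 to 0.27 with single arrays left out. The peroxisomal median was 0.063 and 0.15 with the median and 25th percentile filters, 0.17 with array weights and 0.17 without NZO replicates 4 and 5. Called genes of the other lists numbered 20 as reported, 12 to 23 with single arrays left out, 37 with array weights, 3 with the covariate and 10 without NZO replicates 4 and 5. Of all genes, 2010 passed, 4125 with array weights, 211 with the covariate and 1105 without NZO replicates 4 and 5, and the higher share of calls was 54.2%, 44.0% with array weights and 41.7% without C3H replicate 4. Leaving out C3H replicate 4 and NZO replicates 4 and 5 together was chosen after seeing the data and gave 8 called members, the 7 and Pdk4 (-0.57). The causes were not tested. The strains were different mice and the labels link no NZO sample to a C3H sample, so no paired analysis was run. RMA gives no detection call, so no limit of detection is known.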
